A study of Rattus norvegicus with 4 samples.

Results

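The genes described here encode the kinetochore, the centromere and the spindle checkpoint, the machinery that attaches chromosomes to the mitotic spindle and delays their separation until every chromosome is attached. A gene was taken where its symbol in the deposited table begins with Cenp (18 genes) or equals 1 of 32 symbols named in full (28 found, since Knl1, Nsl1, Sgo1 and Sgo2 are not listed under those names while Casc5, Sgol1 and Sgol2 are). This gave 46 of the 15731 genes in the table. The rule reads symbols and no measured value.

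The study asked what the 3 microRNAs of the miR-106b/25 cluster do to heart muscle cells that can still divide. Ventricular cardiomyocytes of wild-type Wistar rats at postnatal day 1 (another label field gives day 0) were transfected with a synthetic mimic of 1 cluster member (hsa-miR-25-3p, hsa-miR-93-5p or hsa-miR-106b-5p), or with the nematode microRNA cel-miR-67 as control, using Lipofectamine RNAiMAX in all 4 cultures. Total RNA was taken 72 h later and sequenced, with 1 library per mimic. The labels give the mimic concentration as 25 nM in one field and 25 mM in another. The cultures were enriched for cardiomyocytes by letting other cells settle on plastic and were not sorted, and the number of hearts or dishes behind a library is not given in the sources used here.

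The kinetochore is built on centromeric chromatin in layers. An inner set of CENP proteins binds nucleosomes that carry the histone variant CENP-A, and an outer set, with the NDC80 complex at its core, grips spindle microtubules. Unattached kinetochores activate the checkpoint kinases and the MAD and BUB proteins, which hold back CDC20, and once CDC20 is released the anaphase promoting complex removes securin so that separase can open the cohesin ring. Many of these genes are transcribed mainly in late cell cycle phases, and heart muscle cells express them while they still divide, shortly before and after birth.

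The miRNAs of the cluster fall into 2 seed families, and the rat sequences are shown because most members lay above the control with the pair that shares a seed and below it with the third. They were taken from RefSeq (GRCr8, chromosome 12, minus strand, at chr12:22157103-22157123, chr12:22156894-22156916 and chr12:22156652-22156673 in the order below), and capitals mark the seed, bases 2 to 8. The transfected mimics were of the human miRNAs, whose sequences were not used here, nor was that of cel-miR-67.
rno-miR-106b-5p: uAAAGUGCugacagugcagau
rno-miR-93-5p: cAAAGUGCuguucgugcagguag
rno-miR-25-3p: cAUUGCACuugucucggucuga

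Levels are given as RPKM, read numbers divided by gene length and library size, as deposited. Whole reads could be recovered from the steps between RPKM values, and reads on listed genes numbered 15175185 with cel-miR-67, 18797234 after miR-106b, 16520057 after miR-93 and 16460108 after miR-25. Members rested on 43 to 9437 reads per library, with a median of 308.5 reads with cel-miR-67. A change is the log2 ratio of RPKM in 2 libraries without a pseudocount, and a gene was tested where RPKM was above 1.0 in both and called higher or lower past 1.3-fold, a log2 ratio of 0.38 in size. Intervals in parentheses are 95% exact Clopper-Pearson intervals from the recovered reads. They cover counting error only, and with 1 library per mimic the spread between cultures is unknown and no p-value can be given.

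With miR-106b, 33 of 46 members were higher than with cel-miR-67 and 0 were lower. Among all 11296 genes tested in that comparison, 11.9% were higher and 12.7% lower. The median log2 ratio of the members was 0.55, against -0.00329 for all genes. The interval lay above 0 for 37 members, below 0 for 3 and included 0 for 6. At a stricter cutoff of 1.5-fold, 18 members were higher.

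With miR-93, 14 of 46 members were higher and 1 was lower, in a comparison where 15.1% of 11280 genes were higher and 15.6% lower. The members' median log2 ratio was 0.24, against -0.00181 for all genes. Intervals lay above 0 for 25 members and below 0 for 4. A ratio above 0 was found in 38 of 46 members. The count rests on the settings, with 8 members higher at 1.5-fold and 25 when values were scaled to the reads on listed genes.

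With miR-25 the direction was opposite, with 1 of 44 tested members higher and 33 lower, where 19.3% of 11198 genes were higher and 22.6% lower. The median log2 ratio was -0.82, against -0.0123 for all genes. Over all 46 members, intervals lay below 0 for 38 and above 0 for 2. The 2 members not tested, Sgol1 and Espl1, were at RPKM 0.794 and 0.832 with miR-25, so the minimum left out members that were low there. Scaling to the reads on listed genes moves the median of all genes to 0.144 with miR-93, 0.136 with miR-25 and 0.0797 after miR-106b, so ratios closer to 0 than these have no settled direction.

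**Figure D1:**
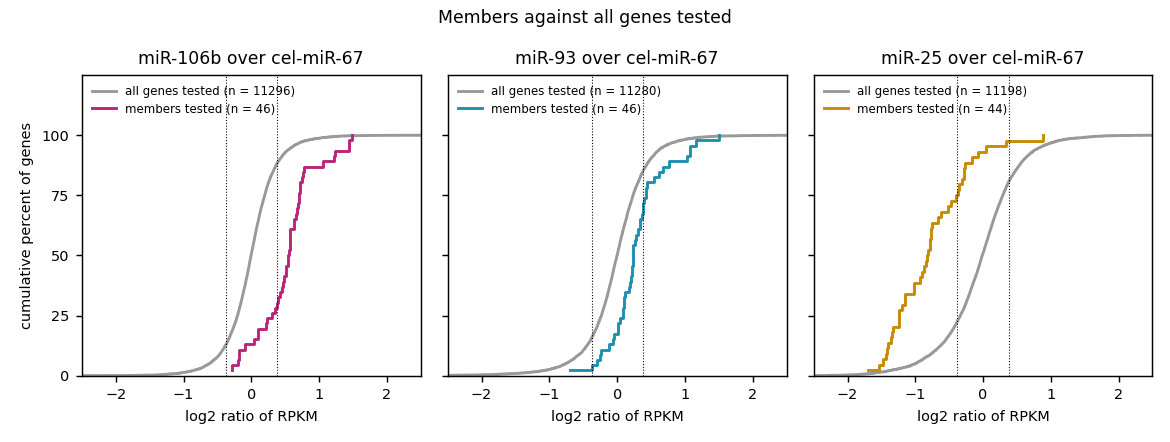
Cumulative percent of genes (y axis) against the log2 ratio of RPKM over cel-miR-67 (x axis) for the tested members (colored) and all genes tested (gray), with 1 library per mimic and dotted lines at 1.3-fold. The member curve lies to the right of the curve for all genes with miR-106b (median 0.55) and miR-93 (0.24), and to its left with miR-25 (-0.82).

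Across the 4 libraries the commonest order of a member's RPKM was miR-106b, miR-93, cel-miR-67 and then miR-25, found in 34 of 46 members. The miR-106b library held the highest value of 37 members and the miR-25 library the lowest of 41. In the 34 members with that order, the counting interval of the step from miR-93 to miR-106b excluded no change in 23. That of the step from cel-miR-67 to miR-93 excluded it in 22, and that of the step from miR-25 to cel-miR-67 in 33. The interval of every step excluded no change in 14 members, which were Birc5, Bub1, Casc5, Cdc20, Cdca8, Cenpa, Cenpe, Cenpf, Espl1, Incenp, Ndc80, Nuf2, Spc25 and Ttk. The 3 comparisons with cel-miR-67 share that library, so a low or high value there moves all of them together. Orders and intervals were counted for members only, so how common they are among all genes is not known here.

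**Figure D2:**
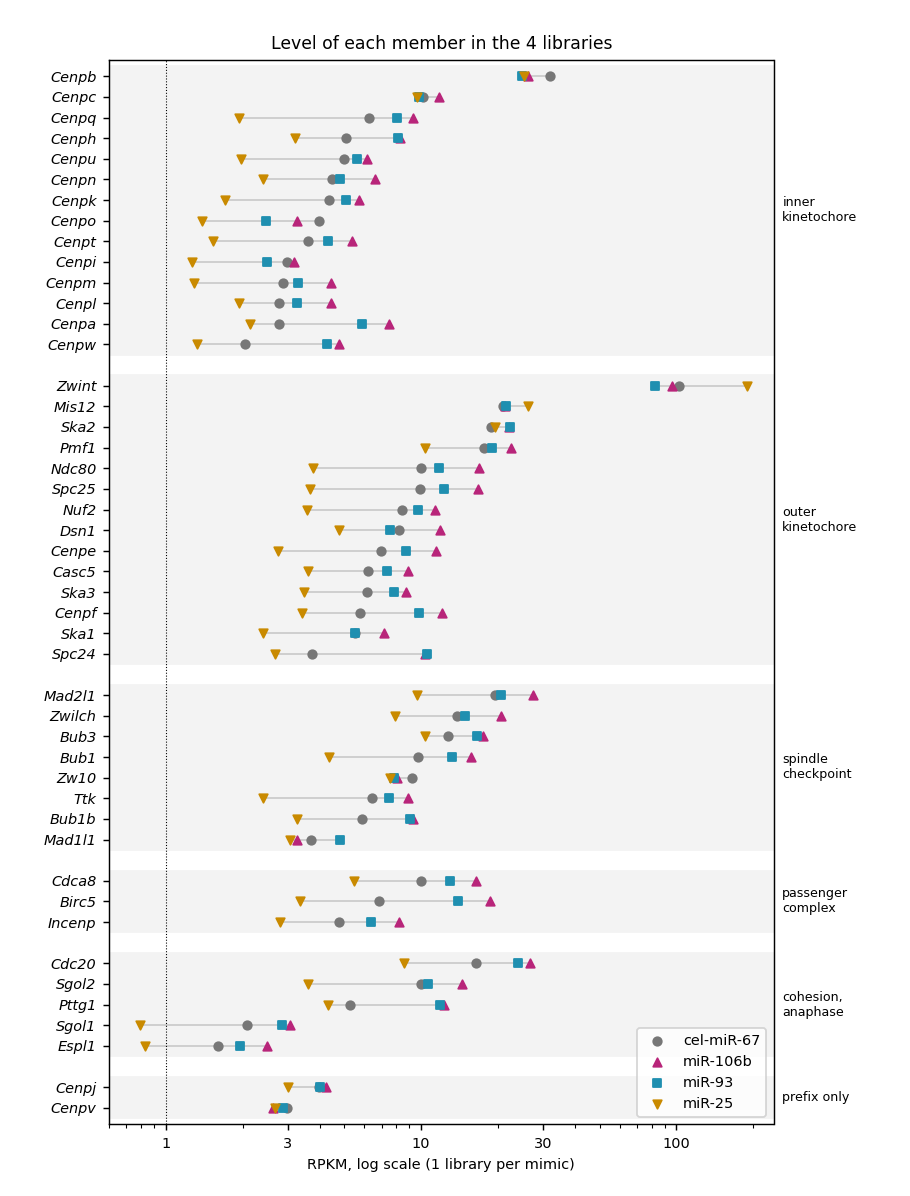
RPKM on a log axis (x) of each of the 46 members (rows, grouped by role) in the 4 libraries, 1 point per library, with a dotted line at RPKM 1.0. In most rows the triangle of miR-106b is at the right and the inverted triangle of miR-25 at the left, while Zwint, at 82.7 to 189, is highest with miR-25.

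Because the members moved together, their promoters were searched for letters known from cell cycle genes. The table of RefSeq windows (GRCr8, 250 bases before to 50 after a start) matched 40 members, Casc5 and Sgol1 among them by an older symbol. They had 41 windows, since Mis12 has 2. Cenpt, Incenp, Sgol2, Zw10, Zwilch and Zwint were not matched. The words of the cell cycle genes homology region, TTTGAA or TTCGAA on either strand, were found in 25 of 41 member windows (61.0%) and in 19.7% of all 33469 windows. The CCAAT box, CCAAT on either strand, was in 23 member windows (56.1%) and 37.5% of all, and both kinds were in 14 (34.1%) and 7.95% of all. The E2F words TTTCCCGC, TTTGGCGC, TTTCGCGC and TTTGCCGC were in 0 of 41 windows and 2.14% of all. These are matches of letters and not binding sites, and no match says only that the letters are not in this window.

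Mis12, with its 2 windows, was left aside, and 11 other members have a stretch of 30 bases around the homology region word wholly before the start. The stretches of 7 of them are shown, picked so that inner and outer kinetochore, checkpoint and anaphase genes are seen. They also place Cenpc, a member that changed little, beside members that changed. They read 5′ to 3′ on the gene's strand, from RefSeq GRCr8, and capitals mark the word, which in Pttg1 is TTTGAA read on the other strand. In order, they are at chr6:31431651-31431680 (minus), chrX:101809598-101809627 (plus), chr14:22342927-22342956 (plus), chr3:74396758-74396787 (minus), chr3:126016830-126016859 (plus), chr5:137255833-137255862 (minus) and chr10:28406338-28406367 (minus).
Cenpa: gagcgtctgattTTTGAActactggcggcg
Cenpi: ttctccctcagaTTTGAAtttacttgctct
Cenpc: atgcgtggctcaTTTGAAaatttttttccc
Spc25: ggcgctccggagTTTGAAattgaaagtcgg
Bub1b: tccctccctgggTTCGAAgacttgccttaa
Cdc20: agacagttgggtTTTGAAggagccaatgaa
Pttg1: cgcgagttggaaTTCAAActgcggtgcgcc

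The word starts 116 bases before the start in Cenpa, 51 in Cdc20 and 29 in Pttg1. In Bub1b the word shown starts at -225, and another match, not shown, starts at -4. In Cdc20 a CCAAT box follows on the same strand, 41 bases before the start. The 25 members with the homology region word had median log2 ratios of 0.57 after miR-106b, 0.28 after miR-93 and -0.89 after miR-25 (23 tested), and the 15 with a window but no match had 0.51, 0.24 and -0.77. Cenpc, Mad1l1 and Mis12 hold the word and were within 1.3-fold of cel-miR-67 with every mimic.

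The inner kinetochore has 14 members, of which 9 were higher and 0 lower with miR-106b, 3 higher and 1 lower with miR-93, and 0 higher and 11 lower with miR-25. Their shares, 64.3% higher with miR-106b, 21.4% higher with miR-93 and 78.6% lower with miR-25, stand beside 11.9%, 15.1% and 22.6% of all genes. Cenpa, which encodes the histone H3 variant that marks the centromere, had RPKM 2.77 with cel-miR-67, 7.50 after miR-106b, 5.84 after miR-93 and 2.14 after miR-25. It was 2.71-fold higher with miR-106b, a log2 ratio of 1.44 (1.18 to 1.70), and 2.11-fold higher with miR-93, at 1.08 (0.81 to 1.35). With miR-25 the ratio was -0.37 (-0.70 to -0.04), just short of the cutoff. Cenpa was thus high in the 2 libraries of the shared seed and close to the control in the miR-25 library.

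Cenpw, which pairs with Cenpt in a histone fold complex on centromeric DNA, had RPKM 2.04 with cel-miR-67, 4.79 after miR-106b, 4.28 after miR-93 and 1.33 after miR-25. Its log2 ratios were 1.23 (0.85 to 1.63), 1.07 (0.67 to 1.48) and -0.62 (-1.14 to -0.10), from 74 reads with cel-miR-67. Cenpt itself stood at 3.59, 5.34, 4.33 and 1.53 in the same order of libraries. Its largest change was with miR-25, at -1.23 (-1.61 to -0.87), so partners of 1 complex differed in which mimic moved them most.

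Cenph, Cenpi, Cenpk and Cenpm belong to the subcomplex that bridges centromeric chromatin to the rest of the inner layer. Cenph was higher with both miR-106b (0.70) and miR-93 (0.67) and lower with miR-25, at -0.66 (-1.04 to -0.30). Cenpk changed by 0.39 (0.10 to 0.68) with miR-106b, 0.22 (-0.08 to 0.52) with miR-93 and -1.36 (-1.77 to -0.96) with miR-25. Cenpi, at RPKM 2.97 with cel-miR-67, 3.17 after miR-106b, 2.49 after miR-93 and 1.26 after miR-25, was within the cutoff with the first pair of mimics and lower with miR-25, at -1.23 (-1.57 to -0.91). Cenpm changed by 0.62 (0.25 to 1.00), 0.19 (-0.21 to 0.60) and -1.16 (-1.69 to -0.64). Within this subcomplex the fall with miR-25 was shared by all 4 genes, and the rise with miR-106b by all but Cenpi.

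Cenpl and Cenpn, which together recognize the CENP-A nucleosome, were higher with miR-106b, at 0.67 (0.42 to 0.93) and 0.57 (0.39 to 0.75), within the cutoff with miR-93 and lower with miR-25, at -0.52 (-0.83 to -0.21) and -0.89 (-1.13 to -0.66). Both followed the commonest order of libraries, but their intervals with miR-93 included 0 (-0.03 to 0.51 and -0.08 to 0.31). The step from cel-miR-67 to miR-93 is thus not resolved by the reads.

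Cenpo, Cenpq and Cenpu belong to a further subcomplex that helps to hold microtubules and the kinase PLK1. Cenpq had RPKM 6.27 with cel-miR-67, 9.31 after miR-106b, 8.08 after miR-93 and 1.93 after miR-25, and its log2 ratio with miR-25 of -1.70 (-2.24 to -1.18), a 3.24-fold lower level, was the largest fall among the members tested. That interval is wide because Cenpq had 43 reads with miR-25, the fewest of any member in any library. Cenpo stood at 4.0, 3.27, 2.47 and 1.38 in the same order and was the 1 member lower with miR-93, at -0.69 (-1.13 to -0.26), as well as lower with miR-25, at -1.53 (-2.08 to -1.01). Cenpu changed by 0.30 (0.03 to 0.57), 0.17 (-0.11 to 0.45) and -1.34 (-1.72 to -0.96). All 3 were lower with miR-25, and of them Cenpq alone was higher with miR-106b.

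Cenpb and Cenpc had the highest RPKM of the layer and were its only members within the cutoff with every mimic. Cenpb, which binds a satellite DNA motif, stood at RPKM 32.1 with cel-miR-67 and at 26.2 after miR-106b, 24.9 after miR-93 and 25.2 after miR-25. Its log2 ratios of -0.29 (-0.39 to -0.19), -0.37 (-0.47 to -0.26) and -0.35 (-0.45 to -0.24) were all below 0 and within the cutoff. Cenpc, the scaffold between chromatin and the outer layer, was at 10.1, 11.8, 9.84 and 9.62. For Cenpb the control library was the one that stood apart, and the 3 mimic libraries were not separated from one another by their counting intervals.

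**Figure D3:**
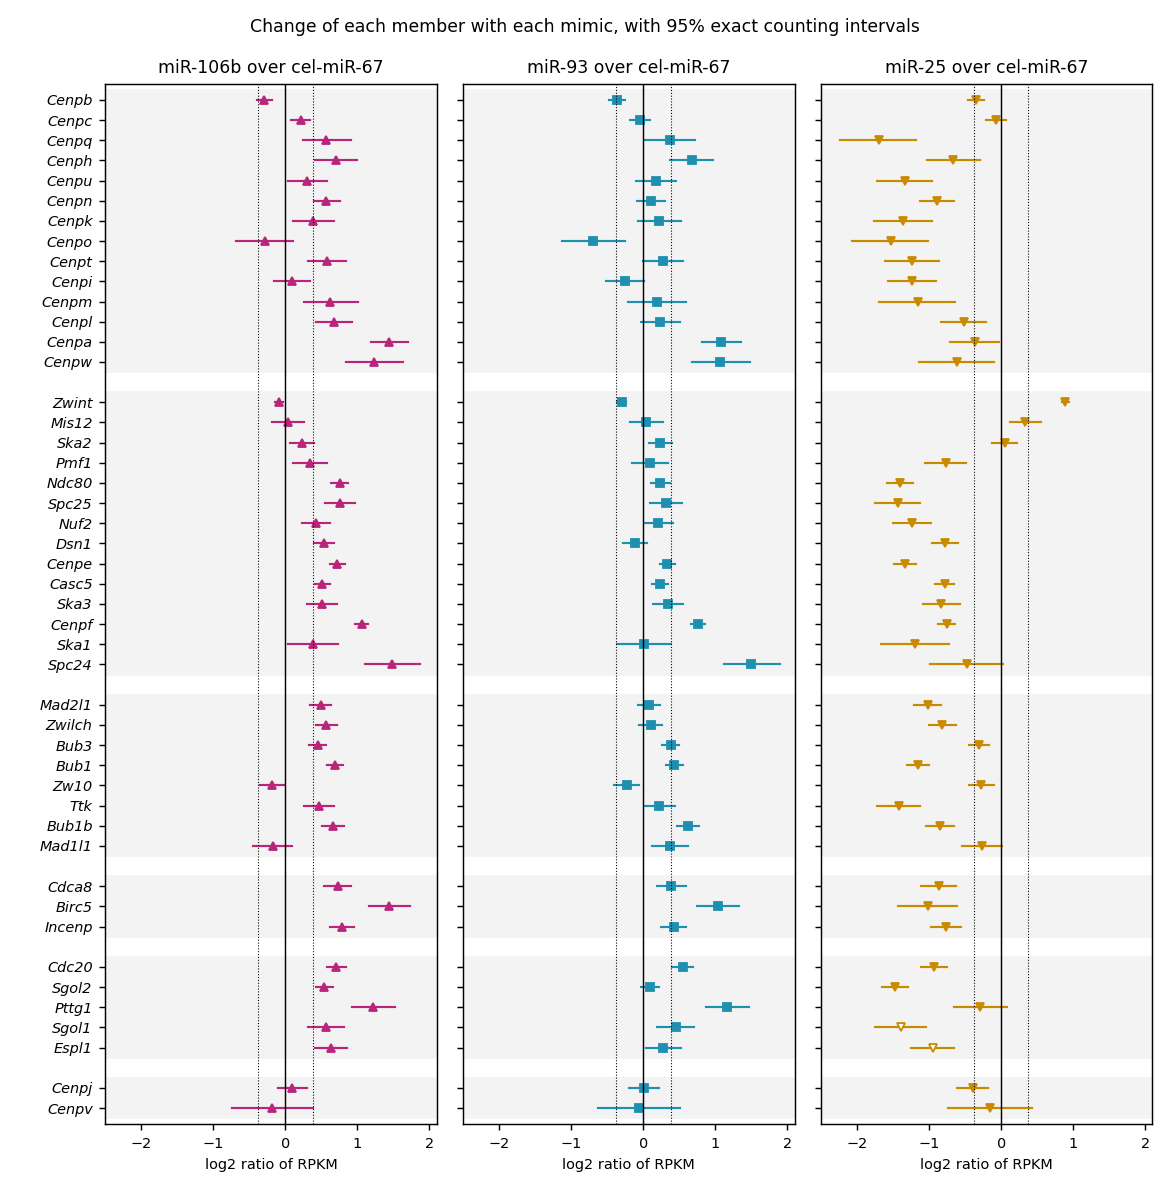
Log2 ratio of RPKM over cel-miR-67 (x axis) for each of the 46 members (rows, grouped by role as in the plot of levels), with 1 panel per mimic, bars for 95% exact counting intervals, dotted lines at 1.3-fold and open points for members under RPKM 1.0. Points lie mainly to the right with miR-106b, closer to 0 with miR-93 and mainly to the left with miR-25, where Zwint (0.89) is at the right.

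The outer kinetochore has 14 members, of which 10 were higher and 0 lower with miR-106b, 2 higher and 0 lower with miR-93, and 1 higher and 11 lower with miR-25. Shares were 71.4% higher with miR-106b, 14.3% higher with miR-93 and 78.6% lower with miR-25, against 11.9%, 15.1% and 22.6% of all genes. The share of this layer that was higher with miR-93 is thus near that of all genes. The 4 genes of the NDC80 complex, whose products are bound in equal numbers in 1 rod-shaped complex that reaches the microtubule, did not change alike. Spc24 had RPKM 3.72 with cel-miR-67, 10.4 after miR-106b, 10.5 after miR-93 and 2.67 after miR-25. Its log2 ratios of 1.48 (1.10 to 1.87) with miR-106b and 1.5 (1.12 to 1.90) with miR-93 were the largest rises of any member in those comparisons. With miR-25 it was past the cutoff as lower, at -0.48, and its interval of -0.99 to 0.03 included 0.

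Spc25, the direct partner of Spc24, had RPKM 9.89 with cel-miR-67, 16.7 after miR-106b, 12.3 after miR-93 and 3.66 after miR-25. Its log2 ratios were 0.75 (0.55 to 0.96), 0.31 (0.09 to 0.54) and -1.43 (-1.75 to -1.13). Ndc80 followed Spc25 closely, at 10.0, 16.9, 11.8 and 3.78 and ratios of 0.76, 0.24 and -1.40 (-1.58 to -1.23). Nuf2 changed by 0.43 (0.24 to 0.62), 0.21 (0.01 to 0.41) and -1.24 (-1.5 to -0.98). The intervals of Spc24 and of the other 3 genes do not overlap with miR-106b or with miR-93, and with miR-25 that of Spc24 overlaps with Nuf2 alone.

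The MIS12 complex joins the inner layer to NDC80, and 3 of its genes are listed. Dsn1 had RPKM 8.22 with cel-miR-67, 11.9 after miR-106b, 7.58 after miR-93 and 4.78 after miR-25, with log2 ratios of 0.53 (0.39 to 0.68), -0.12 (-0.28 to 0.04) and -0.78 (-0.96 to -0.60). Pmf1, at 17.7, 22.4, 18.9 and 10.4, was within the cutoff with the first pair of mimics and lower with miR-25, at -0.77 (-1.06 to -0.48). Mis12 stood at 20.9, 21.4, 21.5 and 26.3 and was within the cutoff throughout, with an interval above 0 with miR-25 (0.12 to 0.55). The gene that names the complex thus had a ratio opposite in sign to its partners' in the miR-25 library.

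Casc5, the rat symbol for the scaffold KNL1 that recruits BUB proteins, was at RPKM 6.22 with cel-miR-67, 8.86 after miR-106b, 7.32 after miR-93 and 3.61 after miR-25. It was higher with miR-106b, at 0.51 (0.41 to 0.62), and lower with miR-25, at -0.78 (-0.92 to -0.65). Zwint, which binds KNL1 and helps to dock the checkpoint complex that contains Zw10 and Zwilch, went the opposite way with miR-25, at a far higher level. Its RPKM was 102 with cel-miR-67, 96.0 after miR-106b, 82.7 after miR-93 and 189 after miR-25, from 4233, 5227, 4137 and 9437 reads. Zwint was the 1 member called higher with miR-25, at 1.86-fold and a log2 ratio of 0.89 (0.84 to 0.94). It was within the cutoff with the other mimics, with intervals of -0.15 to -0.03 after miR-106b and -0.36 to -0.24 after miR-93. The miR-106b interval reaches closer to 0 than 0.0797, the median of all genes after scaling to the reads on listed genes. Its direction with miR-106b is therefore not settled.

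The SKA complex tracks microtubule ends beside NDC80, and its genes also differed. Ska1 was at RPKM 5.49 with cel-miR-67, 7.17 after miR-106b, 5.53 after miR-93 and 2.41 after miR-25, and Ska3 at 6.16, 8.76, 7.80 and 3.47. Both passed the cutoff as higher with miR-106b, at 0.39 (0.04 to 0.74) and 0.51 (0.31 to 0.71), and as lower with miR-25, at -1.19 (-1.67 to -0.72) and -0.83 (-1.09 to -0.57). Ska2, at 18.8, 22.1, 22.2 and 19.5, was within the cutoff with every mimic, and its ratio with miR-25 was 0.05 (-0.12 to 0.22).

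Cenpe, a kinesin that carries chromosomes toward the middle of the spindle, had RPKM 6.94 with cel-miR-67, 11.5 after miR-106b, 8.74 after miR-93 and 2.75 after miR-25. Its log2 ratios were 0.72 (0.62 to 0.82), 0.33 (0.23 to 0.44) and -1.33 (-1.48 to -1.19). Cenpf, a large microtubule-binding protein of the outermost layer, stood at 5.78, 12, 9.82 and 3.42, with ratios of 1.06 (0.97 to 1.15), 0.76 (0.67 to 0.86) and -0.76 (-0.88 to -0.64). Of these long and well counted genes, Cenpf rose more with the shared-seed mimics and Cenpe fell more with miR-25, in each case without overlap of the intervals.

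The spindle checkpoint has 8 members, of which 6 were higher and 0 lower with miR-106b, 3 higher and 0 lower with miR-93, and 0 higher and 5 lower with miR-25. These are 75% higher with miR-106b, 37.5% higher with miR-93 and 62.5% lower with miR-25, against 11.9%, 15.1% and 22.6% of all genes. Bub1, a kinase that marks centromeric chromatin and starts checkpoint assembly, had RPKM 9.76 with cel-miR-67, 15.7 after miR-106b, 13.2 after miR-93 and 4.37 after miR-25. Its log2 ratios were 0.69 (0.58 to 0.80), 0.43 (0.32 to 0.55) and -1.16 (-1.31 to -1.01). Bub1b, which encodes the checkpoint inhibitor BUBR1, was at 5.89, 9.32, 9.02 and 3.27, with ratios of 0.66 (0.51 to 0.81), 0.61 (0.46 to 0.77) and -0.85 (-1.04 to -0.65). Bub3, the adaptor that both of them use, changed less, at 0.45 (0.33 to 0.57), 0.38 (0.26 to 0.50) and -0.31 (-0.44 to -0.17), the last within the cutoff.

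Ttk, which encodes the kinase MPS1 at the head of the checkpoint, had RPKM 6.42 with cel-miR-67, 8.85 after miR-106b, 7.47 after miR-93 and 2.4 after miR-25, and its ratio with miR-25 was -1.42 (-1.72 to -1.13). Mad2l1, which encodes the MAD2 protein that captures CDC20, stood at 19.5, 27.3, 20.6 and 9.61, with ratios of 0.49 (0.35 to 0.63), 0.08 (-0.07 to 0.23) and -1.02 (-1.21 to -0.83). Its template Mad1l1, at 3.70, 3.27, 4.79 and 3.08, was within the cutoff with all 3 mimics and was highest with miR-93. MAD1 and MAD2 work as a pair, and their genes did not follow the same order of libraries.

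Zw10 and Zwilch encode parts of 1 complex that brings dynein and MAD1 to the kinetochore. Zwilch was at RPKM 13.8 with cel-miR-67, 20.5 after miR-106b, 14.8 after miR-93 and 7.87 after miR-25, higher with miR-106b at 0.57 (0.42 to 0.72) and lower with miR-25 at -0.81 (-1.01 to -0.63). Zw10, which also acts in membrane traffic in cells that do not divide, was at 9.19, 8.05, 7.82 and 7.58 and within the cutoff throughout, with all 3 intervals below 0. As with Cenpb, the highest value of Zw10 was in the control library.

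The chromosomal passenger complex corrects faulty attachments, and its 3 members were higher with miR-106b and miR-93 and lower with miR-25 in every case. Of all genes, 11.9% were higher with miR-106b, 15.1% higher with miR-93 and 22.6% lower with miR-25. Birc5, which encodes survivin, had RPKM 6.82 with cel-miR-67, 18.6 after miR-106b, 14.0 after miR-93 and 3.36 after miR-25. It was 2.72-fold higher with miR-106b, a log2 ratio of 1.44 (1.17 to 1.73), 2.05-fold higher with miR-93, at 1.03 (0.74 to 1.33), and 2.03-fold lower with miR-25, at -1.02 (-1.44 to -0.61). Cdca8, which encodes borealin, stood at 9.94, 16.4, 13.0 and 5.44, and the scaffold Incenp at 4.75, 8.18, 6.36 and 2.80. Cdca8 passed the cutoff with miR-93 narrowly, at 0.39 (0.19 to 0.59), and Incenp at 0.42 (0.25 to 0.59).

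The 5 members of cohesion protection and anaphase were all higher with miR-106b, 3 were higher with miR-93, and of the 3 tested with miR-25 2 were lower. Among all genes, 11.9% were higher with miR-106b, 15.1% higher with miR-93 and 22.6% lower with miR-25. Cdc20, the activator of the anaphase promoting complex that the checkpoint holds back, had RPKM 16.4 with cel-miR-67, 26.7 after miR-106b, 23.9 after miR-93 and 8.56 after miR-25. Its log2 ratios were 0.71 (0.57 to 0.84), 0.54 (0.41 to 0.68) and -0.94 (-1.12 to -0.76). Pttg1, which encodes securin, stood at 5.28, 12.3, 11.9 and 4.32, with ratios of 1.22 (0.92 to 1.52), 1.17 (0.87 to 1.47) and -0.29 (-0.66 to 0.08). Pttg1 therefore resembled Cenpa, high with the shared-seed mimics and not separated from the control with miR-25 by the cutoff.

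Espl1, which encodes separase, the protease that securin restrains, was among the lowest members, at RPKM 1.61 with cel-miR-67, 2.5 after miR-106b, 1.95 after miR-93 and 0.832 after miR-25. It was higher with miR-106b, at 0.64 (0.42 to 0.86), and its ratio with miR-25, untested because of the RPKM minimum, was -0.95 (-1.25 to -0.65) from 249 and 155 reads. The shugoshins protect cohesin at the centromere until anaphase. Sgol1 was at 2.09, 3.08, 2.85 and 0.794, with an untested ratio of -1.39 (-1.76 to -1.04) with miR-25. Sgol2 was at 9.97, 14.5, 10.6 and 3.59 and was lower with miR-25, at -1.47 (-1.65 to -1.30).

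Cenpj and Cenpv were taken by their symbol alone, and Cenpj acts in centriole growth and not at the kinetochore. Cenpj was at RPKM 3.98 with cel-miR-67, 4.25 after miR-106b, 4.01 after miR-93 and 3.02 after miR-25, and passed the cutoff only as lower with miR-25, at -0.40 (-0.62 to -0.18). Cenpv, at 2.99, 2.63, 2.87 and 2.68 from 51 to 59 reads per library, gave intervals that include 0 with every mimic, so no difference was detectable at this depth.

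Grouped by their calls, 10 members were higher with both shared-seed mimics and lower with miR-25, and 18 were higher with miR-106b, within the cutoff with miR-93 and lower with miR-25. Bub3, Cenpa and Pttg1 were higher with both shared-seed mimics and within the cutoff with miR-25. Cenpi, Cenpj, Cenpu and Pmf1 were lower with miR-25 and within the cutoff otherwise. The 7 members within it for every mimic were Cenpb, Cenpc, Cenpv, Mad1l1, Mis12, Ska2 and Zw10. Joint calls were counted for members only, so the share of all genes with the same calls is not known here. Some calls stood close to the cutoff: Ska1 (0.39) and Cenpk (0.39) were just past it with miR-106b and Pmf1 (0.34) just short, Bub3 (0.38) was just past it with miR-93 and Mad1l1 (0.37) just short, and Cenpa (-0.37) was just short of it with miR-25.

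Direct ratios between the mimic libraries do not use the control. In miR-93 over miR-106b, the pair with a shared seed, 1 of 46 members was higher and 12 were lower, where 7.30% of 11391 genes were higher and 8.21% lower, and the median log2 ratio was -0.25 against 0.00304 for all genes. Intervals lay below 0 for 27 members and included 0 for 18. At 1.5-fold 0 were higher and 1 was lower, and after scaling to the reads on listed genes 5 were lower. Dsn1 differed most, at -0.65 (-0.79 to -0.51), followed by Ndc80, at -0.52 (-0.62 to -0.41), while Spc24 (0.02, -0.23 to 0.28) and Pttg1 (-0.05, -0.27 to 0.17) were close to 0. Mad1l1 was the 1 member higher with miR-93, at 0.55 (0.31 to 0.79). Cenpo was past the cutoff at -0.41 with an interval of -0.84 to 0.02.

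In miR-25 over miR-106b, 1 of 44 tested members was higher and 36 were lower, where 22.1% of 11183 genes were higher and 23.0% lower, with a median log2 ratio of -1.51 against 0.00184 for all genes. Birc5 (-2.46, -2.83 to -2.12), Cenpq (-2.27, -2.77 to -1.79), Spc25 (-2.19, -2.48 to -1.91), Ndc80 (-2.16, -2.32 to -2.00) and Cenpe (-2.06, -2.19 to -1.93) stood farthest apart. In miR-25 over miR-93, 1 of 44 was higher and 37 were lower, where 22.1% of 11198 genes were higher and 23.0% lower, with a median of -1.23 against -0.0123. Zwint was the member that was higher in both, at 0.98 (0.93 to 1.03) and 1.19 (1.14 to 1.25). Cenpb, Cenpv and Zw10 gave intervals that include 0 in all 3 ratios between mimics.

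**Figure D4:**
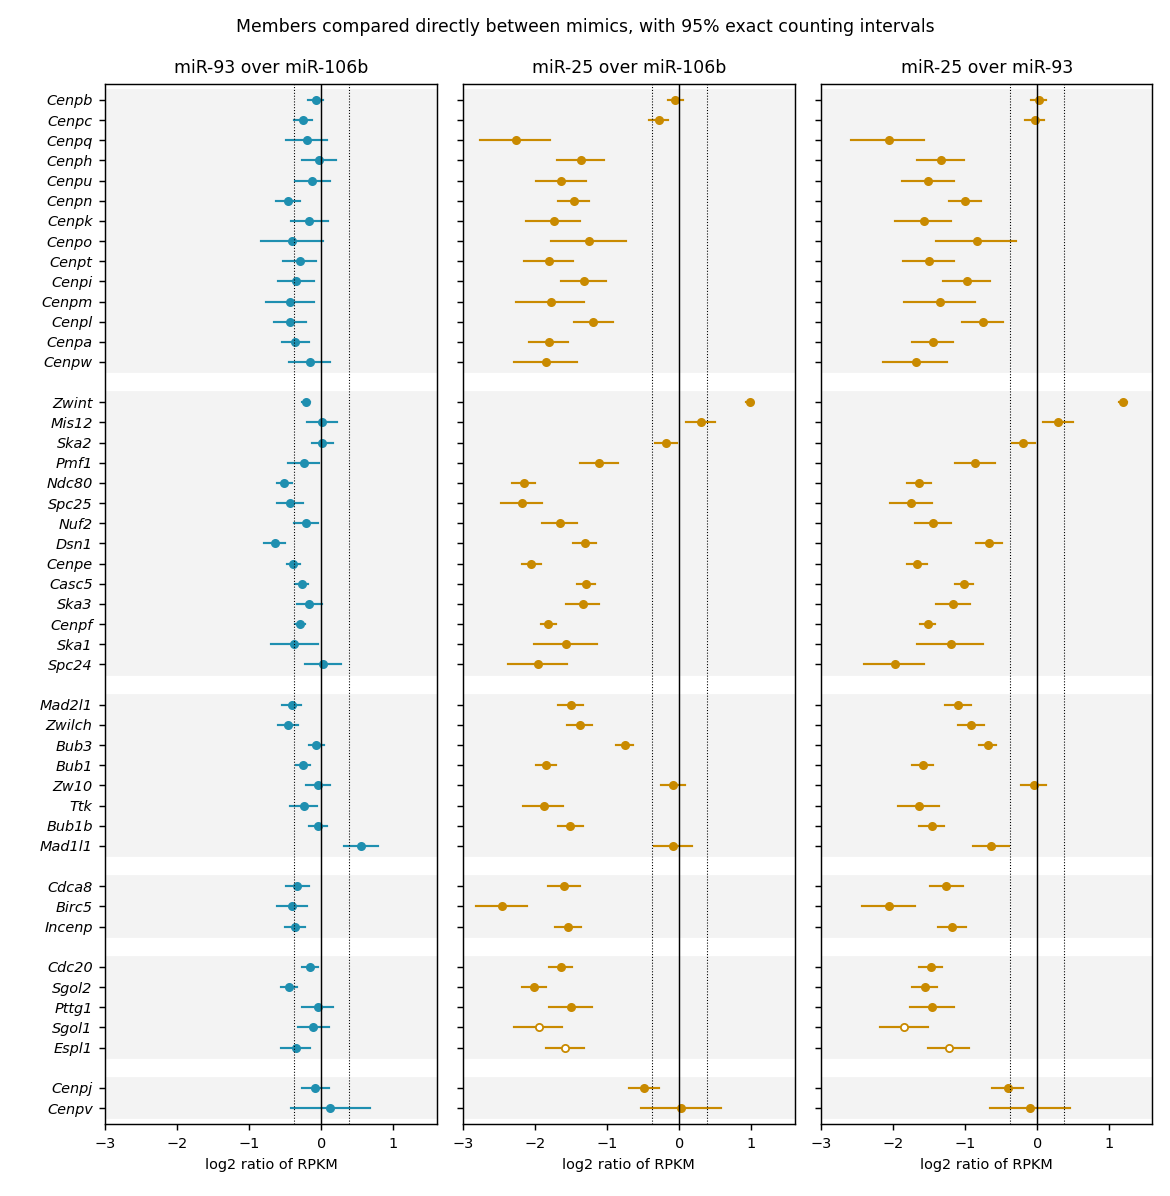
Log2 ratio of RPKM (x axis) between mimic libraries, without the control, for each of the 46 members (rows, grouped by role), with bars for 95% exact counting intervals, dotted lines at 1.3-fold and open points for members under RPKM 1.0. With miR-93 over miR-106b the points lie near 0 (median -0.25), and with miR-25 over miR-106b (-1.51) or miR-93 (-1.23) most lie far to the left while Zwint lies at the right.

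Other genes of the same machinery, taken from lists outside the rule, gave a base for comparison. Over all genes tested, 11.9% were higher and 12.7% lower with miR-106b, and 15.1% and 15.6% with miR-93. With miR-25 these shares were 19.3% and 22.6%. Of 25 other centromere and kinetochore genes 22 were listed, and 12 were higher and 0 lower with miR-106b (median 0.49), 9 higher and 1 lower of 21 with miR-93 (0.28), and 4 higher and 12 lower of 22 with miR-25 (-0.42). Mis18a, needed to load CENP-A, had the largest rise with miR-106b, at 0.97 (0.60 to 1.35), and Oip5, of the same loading complex, the largest fall with miR-25, at -2.00 (-2.76 to -1.29). Aurkb, the kinase of the passenger complex, stood at RPKM 4.18 with cel-miR-67, 7.40 after miR-106b, 6.52 after miR-93 and 2.17 after miR-25 and had the largest rise with miR-93, at 0.64 (0.48 to 0.80), which puts it with Birc5, Cdca8 and Incenp in its order of libraries. Ndel1, a dynein regulator, fell most with miR-93, at -0.65 (-0.77 to -0.53), had the lowest ratio with miR-106b, at -0.38 (-0.49 to -0.27), and Clasp2, a microtubule-stabilizing protein, rose most with miR-25, at 0.55 (0.45 to 0.65).

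The list of the anaphase promoting complex, which CDC20 activates, also holds genes that act with it, such as Ube2c and Fbxo5. This list changed little, with 2 higher and 2 lower of 18 after miR-106b, 3 and 1 after miR-93, and 0 and 3 after miR-25. Its medians were 0.17, 0.06 and -0.11. Its extremes were Ube2c (0.91) and Anapc11 (-0.54) with miR-106b, Cdc26 (0.46) and Anapc11 (-0.66) with miR-93, and Anapc10 (0.32) and Fbxo5 (-1.29) with miR-25. Cohesin, which the shugoshins protect, had 0 of 12 genes past the cutoff with miR-106b or miR-93. With miR-25 3 were lower (25%), near the 22.6% of all genes, and Esco2, which acetylates cohesin in S phase, fell most, at -1.86 (-2.08 to -1.63). Other extremes of the cohesin list were Smc3 (0.28 and 0.34) and Esco1 (-0.36 and -0.31) with miR-106b and miR-93, and Stag1 (0.30) with miR-25.

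All 8 condensin genes were lower with miR-25 (median -0.77), from Ncapd3 (-0.50) to Ncaph (-1.66), whereas 2 were higher with miR-106b (median 0.20) and 0 were past the cutoff with miR-93 (0.08). Smc2 had the highest condensin ratio with both of the latter (0.42 and 0.29), and Ncaph2 (-0.03) and Ncapg2 (-0.30) the lowest. Of 6 proliferation markers, 5 were higher with miR-106b (median 0.66), 3 with miR-93 (0.37), and 5 were lower with miR-25 (-1.33). Top2a had the lowest ratio with miR-25, at -1.57 (-1.65 to -1.49), and Pcna the lowest with miR-106b (0.36) and miR-93 (0.06). Ccnb1, the mitotic cyclin, stood at RPKM 10.4 with cel-miR-67, 46.1 after miR-106b, 36.9 after miR-93 and 10.2 after miR-25, and its ratio with miR-25 was -0.03 (-0.23 to 0.17), a set of calls it shared with Bub3, Cenpa and Pttg1 among the members. Members thus moved in the same direction as the proliferation markers in each comparison. In bulk RNA a smaller share of dividing cells and less RNA per dividing cell cannot be told apart. The paper describes Ccnb1 as downregulated by miR-25, where the ratio here was -0.03. By microscopy, the paper reports more DNA-synthesizing cardiomyocytes and more cardiomyocytes in total in neonatal rat cultures with each cluster member, miR-25 included. In hearts of young mice given each member by viral vector, it also reports more mitotic cardiomyocytes. How those counts relate to these RNA values was not tested.

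**Figure D5:**
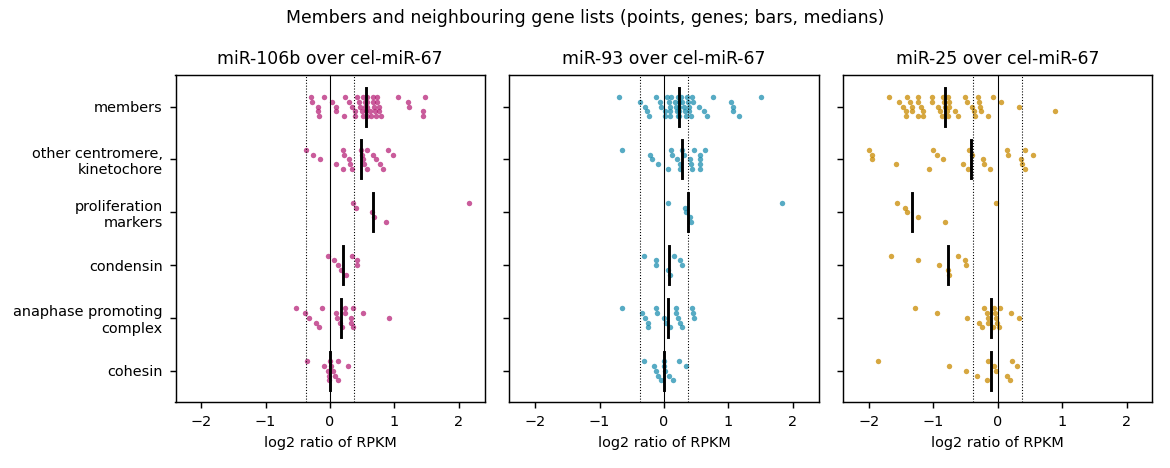
Log2 ratio of RPKM over cel-miR-67 (x axis) of the tested genes (points) in the members and 5 neighboring lists (rows), with 1 panel per mimic, black bars at the medians and dotted lines at 1.3-fold. The members (0.55, 0.24 and -0.82) lie on the same side of 0 as the proliferation markers (0.66, 0.37 and -1.33), and cohesin lies near 0.

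All 10 cardiomyocyte markers were detected in every library, with their RPKM summing to 16060 with cel-miR-67, 15730 after miR-106b, 12150 after miR-93 and 12000 after miR-25. With miR-25, however, 9 of the 10 were lower, and Tnni3, cardiac troponin I, was at RPKM 351 with cel-miR-67 and 15.9 with miR-25, a log2 ratio of -4.47 (-4.63 to -4.31). The remaining marker, the natriuretic peptide gene Nppa, was higher with miR-25, at RPKM 4425 against 1860 with cel-miR-67 and a log2 ratio of 1.25 (1.23 to 1.27). Without Nppa the other 9 summed to 14198 with cel-miR-67, 14118 after miR-106b, 11893 after miR-93 and 7572 after miR-25. The 9 fibroblast markers summed to 835, 648, 751 and 334 in the same order, with 7 lower and 1 higher with miR-25 and 5 lower with each of the other mimics, and the 7 smooth muscle and pericyte markers to 294, 288, 217 and 775, with 5 higher and 1 lower of 6 tested with miR-25. The 7 endothelial markers found summed to 8.56, 6.49, 6.80 and 5.75, with 1 higher and 2 lower of 3 tested with miR-25, and the 9 macrophage markers to 22.9, 19.4, 22.9 and 15.1, with 0 higher and 4 lower of 6. No marker found was at 0 in any library. In the miR-25 library, where most members were lower, cell type markers thus differed from the control in both directions, most cardiomyocyte and fibroblast markers being lower and most smooth muscle and pericyte markers higher, and their part in the members' fall was not tested.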

How the data were processed

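RNA-seq values of 4 libraries, 1 per mimic, were used. According to the methods and the submitters' processing notes, the authors checked reads with FASTQC, trimmed adaptors with Cutadapt, aligned to Rnor 6.0 with STAR 2.7 and converted rounded gene counts to RPKM with edgeR. The program that counted reads on genes is not given in the sources used here. The deposited RPKM values of the table for the series and of the single libraries were identical for all 15731 genes. Library sizes behind the RPKM were recovered from the steps between values, at 22674410, 29749467, 27315663 and 27253360 reads for cel-miR-67, miR-106b, miR-93 and miR-25, of which listed genes held 66.9%, 63.2%, 60.5% and 60.4%. The recovered size for cel-miR-67 is not whole, so it may not be a plain read total, which was not tested.

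Ratios, the RPKM minimum of 1.0 and the cutoff of 1.3-fold follow the results text of the study, whose methods give a minimum of 2.0. All members are named or counted by role, and in each neighboring list the extreme genes of each comparison with cel-miR-67. Members and lists were chosen with earlier results of these data known. Tables were handled with pandas 2.3.3 and numpy 2.4.6 in Python 3.11.15, intervals came from scipy 1.17.1 and plots from matplotlib 3.10.9, and the recovery of reads was tested on simulated data. Alternatives were the minimum, the cutoff, a pseudocount, 2 other scalings and leaving out Cenpj and Cenpv.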

Additional observations from a re-analysis of the deposited data

How the results depend on the processing

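With 1 library per mimic no replicate could be left out. No paired analysis was possible because each group holds 1 library. The spread between cultures is unknown, and depth limits members with few reads, such as Cenpq and Cenpv. A cutoff of 1.5-fold left 18 members higher with miR-106b, 8 with miR-93, and 0 higher and 1 lower in miR-93 over miR-106b. Scaling to the reads on listed genes moved the median log2 ratio of all genes with miR-93 to 0.144, with miR-25 to 0.136 and with miR-106b to 0.0797. The members' median then became 0.38 with miR-93 and -0.67 with miR-25, with 25 higher with miR-93, 2 higher with miR-25 and 5 lower in miR-93 over miR-106b. A pseudocount of 1.0 RPKM moved the medians to -0.69 with miR-25, -1.27 in miR-25 over miR-106b and -1.0 in miR-25 over miR-93. No member count or median changed direction under any of these alternatives, and centering on the median gene, an RPKM minimum of 2.0 or none, and leaving out Cenpj and Cenpv moved no count by over 1.5 times.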
